A study of Mus musculus with 2 samples.

Results

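Genes of cholesterol synthesis, uptake and their control by the transcription factor SREBP2 were examined in mouse liver. The 32 genes were listed by name for their known roles, with no threshold on their values but with earlier results of these data known, and 44 probes matched them through the transcript accession of the probe. All 32 genes had at least 1 probe well above background on both arrays, among 13877 named genes measured in this way and 20656 named genes on the array. The study compared pooled liver RNA of wild-type (WT) mice with that of CREBH-Tg mice, which overexpress a human cDNA for the active form of CREBH, mainly in the liver. CREBH is a liver-enriched transcription factor that, in its natural form, is held in the membrane of the endoplasmic reticulum (ER) and freed by cleavage. Both groups were on the C57B6J background and had eaten the HFHS diet for 12 weeks, so the comparison holds no group on another diet. Age, sex, the promoter of the transgene and how many animals entered a pool are not stated in the labels read here. Each group was 1 pool on 1 array. No difference could therefore be tested against the spread between animals, and all are described by size.

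Cells build cholesterol from acetyl-CoA through mevalonate, farnesyl diphosphate, squalene and lanosterol. SREBP2 drives most genes of this route and of sterol uptake. When ER sterols are plentiful, the escort protein SCAP is held back by INSIG proteins and SREBP2 stays in the ER; when sterols run low, SCAP carries SREBP2 to the Golgi, where proteases release its active part. The liver also takes up lipoprotein cholesterol, stores it as esters and exports it, and the LXR receptors raise genes of export when oxysterols are high.

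Signal is given here as a multiple of the array's 75th percentile of processed intensity, and the log2 ratio is CREBH-Tg minus WT, so a negative value is lower in CREBH-Tg. Probes differ in brightness for their own reasons, so a signal is compared only between the arrays and not between genes. The only measure of error was the spread of probes spotted repeatedly on the array. Named genes were split into 3 equal classes by signal. In the order dimmest, middle, brightest, the SD of log2 ratios between such spots was 0.20, 0.085 and 0.048, and 1.96 SD, called spot noise below, was 0.40, 0.17 and 0.095. Of the 32 genes, the brightest class held 26, the middle class 5 and the dimmest 1. Spot noise leaves out the spread between animals, pools, labelling and hybridisation.

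Of the 19 enzymes of cholesterol synthesis, 15 were lower in the CREBH-Tg pool by more than spot noise, most by small steps. The other 4 (Acat2, Ggps1, Tm7sf2 and Ebp) lay within it. These counts hold for 75th percentile scaling. With each array's median as the reference, Mvk (-0.039), Pmvk (-0.052) and Fdft1 (-0.071) lay within it and Ebp (0.12) was higher. After quantile normalization Acat2 (-0.12) and Tm7sf2 (-0.17) were lower by more than it. Of 6 genes of sterol uptake and transport, 3 were higher by more than spot noise (Mylip, Scarb1 and Npc2). Over all 32 genes the median log2 ratio was -0.16, against 0.027 over all named genes. Of the 32, 26 had a log2 ratio below 0 (20 to 28 over the settings tried), where 43.8% of named genes did. By 1.2-fold or more, 12 were lower and 3 higher, where 9.92% of named genes were lower and 11.1% higher by this step. With 75th percentile scaling, 20 of the 32 were lower by more than spot noise, 3 were higher and 9 lay within it. Of all named genes, 13.2% were lower and 20.9% higher by this measure. Those shares cover 3 equal signal classes, whereas 26 of the 32 sit in the brightest, where spot noise is smallest. The counts and the shares are thus not like for like. The 1.2-fold counts moved with the scaling between arrays, to 7 lower and 3 higher with each array's median as the reference, 15 lower and 1 higher after quantile normalization or loess, and 15 lower and 0 higher in the authors' value table. A single gene, Soat1, was 2-fold apart, where 0.67% of named genes were 2-fold lower and 0.663% 2-fold higher.

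Values are given next by pathway step. The 19 enzymes of synthesis had a median log2 ratio of -0.26, with 18 below 0 (15 to 19 over the settings) and 9 lower by 1.2-fold or more, and none was higher by that step. In the brightest class, which holds 17 of these 19, 4.02% of named genes were 1.2-fold lower. The 13 genes of control, uptake, transport, esterification and efflux had a median of -0.069 (0.020 with median scaling), with 8 below 0, 3 lower and 3 higher by 1.2-fold. Of the enzymes, 15 stayed below 0 with every scaling, background correction, probe summary and filter tried; Acat2, Ggps1, Tm7sf2 and Ebp took both signs. The difference between these groups of genes was not tested.

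**Figure D1:**
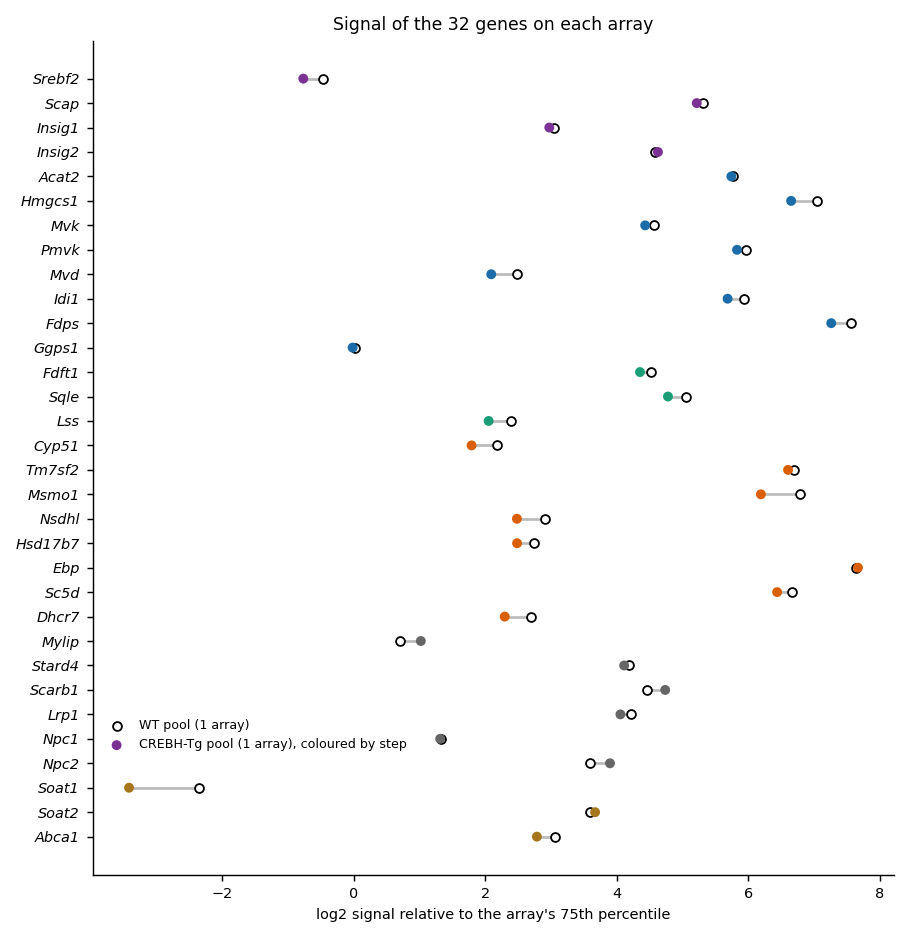
Log2 signal of each of the 32 genes (x axis, relative to the array's 75th percentile) in the WT pool (open circles) and the CREBH-Tg pool (filled circles, coloured by pathway step), 1 array each. The filled circle lies to the left for 18 of 19 enzymes of synthesis and to the right for Mylip, Scarb1 and Npc2; positions of different genes on the axis are not comparable.

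Promoter sequence is shown for 5 of the genes, so that lower, nearly equal and higher genes can be set side by side: 3 enzymes that were lower (Hmgcs1, Msmo1 and Cyp51), an enzyme that was nearly equal (Ebp) and a transport gene that was higher (Npc2). Each is the 250 bases before the transcription start in RefSeq on build GRCm38.p6, written 5′ to 3′ along the gene's strand. Capitals mark the SREBP consensus TCACNCCAC and the CCAAT box, read on both strands, so the latter also appears as ATTGG.
Hmgcs1, chr13:119690101-119690350, plus strand: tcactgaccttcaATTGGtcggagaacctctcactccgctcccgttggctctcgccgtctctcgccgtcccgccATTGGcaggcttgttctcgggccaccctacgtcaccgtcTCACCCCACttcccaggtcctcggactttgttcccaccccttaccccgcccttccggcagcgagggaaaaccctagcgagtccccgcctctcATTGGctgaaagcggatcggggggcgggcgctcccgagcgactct
Msmo1, chr8:64733579-64733828, minus strand: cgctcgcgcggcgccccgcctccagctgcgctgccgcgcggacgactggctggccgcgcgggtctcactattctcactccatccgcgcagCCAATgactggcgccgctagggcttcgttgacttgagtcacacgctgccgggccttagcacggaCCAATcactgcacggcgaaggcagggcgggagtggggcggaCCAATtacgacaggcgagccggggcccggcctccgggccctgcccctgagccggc
Cyp51, chr5:4104698-4104947, minus strand: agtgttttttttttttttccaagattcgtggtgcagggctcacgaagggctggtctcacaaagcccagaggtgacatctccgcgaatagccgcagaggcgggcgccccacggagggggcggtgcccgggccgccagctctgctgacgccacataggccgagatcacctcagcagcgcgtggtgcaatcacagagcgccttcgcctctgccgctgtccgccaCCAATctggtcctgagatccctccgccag
Ebp, chrX:8193513-8193762, minus strand: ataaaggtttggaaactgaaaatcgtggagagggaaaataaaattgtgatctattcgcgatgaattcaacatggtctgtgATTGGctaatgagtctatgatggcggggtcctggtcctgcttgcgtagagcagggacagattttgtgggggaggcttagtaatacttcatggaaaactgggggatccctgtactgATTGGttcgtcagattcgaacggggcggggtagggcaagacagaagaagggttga
Npc2, chr12:84773113-84773362, minus strand: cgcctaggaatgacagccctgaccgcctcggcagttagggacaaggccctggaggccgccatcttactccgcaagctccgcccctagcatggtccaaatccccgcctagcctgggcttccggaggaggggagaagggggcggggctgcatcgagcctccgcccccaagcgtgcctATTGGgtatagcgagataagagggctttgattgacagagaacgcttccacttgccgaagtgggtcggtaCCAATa
RefSeq promoter sequences were matched for 25 of the 32 genes, in 31 windows. CCAAT, the element bound by NF-Y, a factor known to work beside SREBPs, was present in 21 of the 31 windows and in 33.9% of 32841 promoter windows of the same length. It stood in the windows of Ebp and Npc2 as well as in those of Hmgcs1, Msmo1 and Cyp51. The GC box GGGCGG was present in 24 of the 31 and in 32.7% of all. The SREBP consensus was found in 1 of the 31, in Hmgcs1, and in 1.05% of all. The E-box CACGTG was in 6 of the 31 (Scap, Insig1, Hsd17b7, Sc5d, Dhcr7 and Abca1) and in 6.02% of all, and the cyclic AMP response element TGACGTCA in none and in 1.55%. A match of letters does not show that a factor was bound, and a missing match says only that these letters are not in this window.

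Among the genes that control the route, the differences were small. Srebf2, which encodes SREBP2, had a signal of 0.726 in WT and 0.589 in CREBH-Tg on its brighter probe, a log2 ratio of -0.30. Its second probe was dim, at 0.257 in WT and 0.275 in CREBH-Tg, and gave 0.096, less than the spot noise of 0.40 in the dimmest class. The 2 probes of Srebf2 thus lay on opposite sides of 0, and the direction is unsettled. In the counts above Srebf2 stands with its brighter probe, and the mean over its probes was -0.10. Scap, the escort, had 39.8 in WT and 37.2 in CREBH-Tg, a log2 ratio of -0.10, just past spot noise (-0.011 with median scaling, within it). Insig1, a retention protein that is itself a target of SREBP2, had 8.26 and 7.86, a log2 ratio of -0.072, within spot noise. Insig2, its relative, had 23.9 and 24.7, a log2 ratio of 0.048, also within it. Insig1 was above 0 with median scaling (0.017), and Insig2 below 0 after quantile normalization (-0.013), after loess (-0.012) and in the authors' value table (-0.013).

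In the mevalonate part, from acetyl-CoA to the prenyl diphosphates, 8 of 8 genes lay below 0 (6 with median scaling or normexp background correction). Of all named genes 43.8% did. The median log2 ratio was -0.20. By 1.2-fold or more 3 genes were lower, where 9.92% of named genes were (4.02% in the brightest class). Acat2, the thiolase that joins acetyl-CoA units (not the sterol-esterifying enzyme that has shared the name), was nearly equal, at 54.3 in WT and 53.5 in CREBH-Tg. Hmgcs1, the HMG-CoA synthase of the next step, had 132 in WT and 100.5 in CREBH-Tg, a log2 ratio of -0.39 ± 0.048 (spot-noise SD) or 1.31-fold lower. The difference was about as large for Mvd, the decarboxylase that forms isopentenyl diphosphate, with 5.58 and 4.27, a log2 ratio of -0.39.

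Between Hmgcs1 and Mvd in the route, the kinases were nearer to equal. Mevalonate kinase, Mvk, had 23.6 in WT and 21.6 in CREBH-Tg, a log2 ratio of -0.13. Phosphomevalonate kinase, Pmvk, had 62.6 and 56.8, a log2 ratio of -0.14. Their second probes gave -0.26 and -0.24, on the same side. Idi1, the isomerase that makes the allylic unit, had 61.3 and 51.4, a log2 ratio of -0.25 that falls just short of 1.2-fold. Fdps, which builds farnesyl diphosphate, had 189 and 153, a log2 ratio of -0.30 or 1.23-fold lower. Ggps1, which leads away from sterols to geranylgeranyl diphosphate for protein prenylation, had 1.01 and 0.99, a log2 ratio of -0.028, with its second probe at -0.22. Acat2 and Ggps1 were above 0 with median scaling (0.068 and 0.061) and after normexp (0.027 and 0.066).

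From farnesyl diphosphate to lanosterol, 3 of 3 genes were lower by more than spot noise, where 13.2% of named genes were. That share covers all signal classes, whereas these 3 were in the brightest. The median log2 ratio was -0.28. Fdft1, squalene synthase, had 22.8 in WT and 20.4 in CREBH-Tg, a log2 ratio of -0.16 (-0.071 with median scaling, within spot noise). Its dim second probe gave -0.45. Sqle, squalene epoxidase, known as a control point of the route, had 33.2 and 27.4, a log2 ratio of -0.28 or 1.21-fold lower. Lss, which closes the rings to lanosterol, had 5.24 and 4.15, a log2 ratio of -0.34 or 1.26-fold lower. Sqle and Lss were short of 1.2-fold with median scaling, at -0.19 and -0.25, as were Srebf2 and Fdps, both at -0.21.

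From lanosterol to cholesterol the median log2 ratio was -0.32, the lowest of the 3 synthetic parts. By 1.2-fold or more 4 of 8 genes were lower, where 9.92% of named genes were (4.02% in the brightest class). Cyp51, the cytochrome P450 that removes a methyl group from lanosterol, had 4.52 in WT and 3.47 in CREBH-Tg, a log2 ratio of -0.38 ± 0.085. Msmo1, the oxidase that starts removal of the next methyl groups, had 111 and 73.1, a log2 ratio of -0.60 ± 0.048 or 1.51-fold lower. Only 2.07% of named genes had a lower log2 ratio than Msmo1. Nsdhl and Hsd17b7 encode the dehydrogenase and the reductase that work with Msmo1 in this demethylation. Nsdhl had 7.51 and 5.59, a log2 ratio of -0.43, and its second probe gave -0.44. Hsd17b7 had 6.69 and 5.60, a log2 ratio of -0.26, and its second probe gave -0.18. All 3 genes of this demethylation step were thus lower in CREBH-Tg, by 1.51-fold, 1.34-fold and 1.19-fold with 75th percentile scaling. They stayed below 0 under every setting tried, but Hsd17b7 was at -0.17 with median scaling and -0.13 after normexp.

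The other genes of this part were uneven. Tm7sf2, a sterol reductase placed between Cyp51 and Msmo1 in the route, had 103 in WT and 97.3 in CREBH-Tg, a log2 ratio of -0.086, within spot noise. Ebp, the isomerase that shifts a double bond in the ring, had 199 and 203, a log2 ratio of 0.033, and was the only one of the 19 enzymes above 0 with 75th percentile scaling; it lay below 0 after quantile normalization (-0.071), loess (-0.061) and in the authors' value table (-0.028). Sc5d, the desaturase that follows it, had 101 and 86.7, a log2 ratio of -0.22. Dhcr7, the reductase that makes cholesterol from its dehydro precursor, had 6.49 and 4.92, a log2 ratio of -0.40 or 1.32-fold lower. The enzymes lower by 1.2-fold or more under every setting tried were 6, namely Hmgcs1, Mvd, Cyp51, Msmo1, Nsdhl and Dhcr7.

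**Figure D2:**
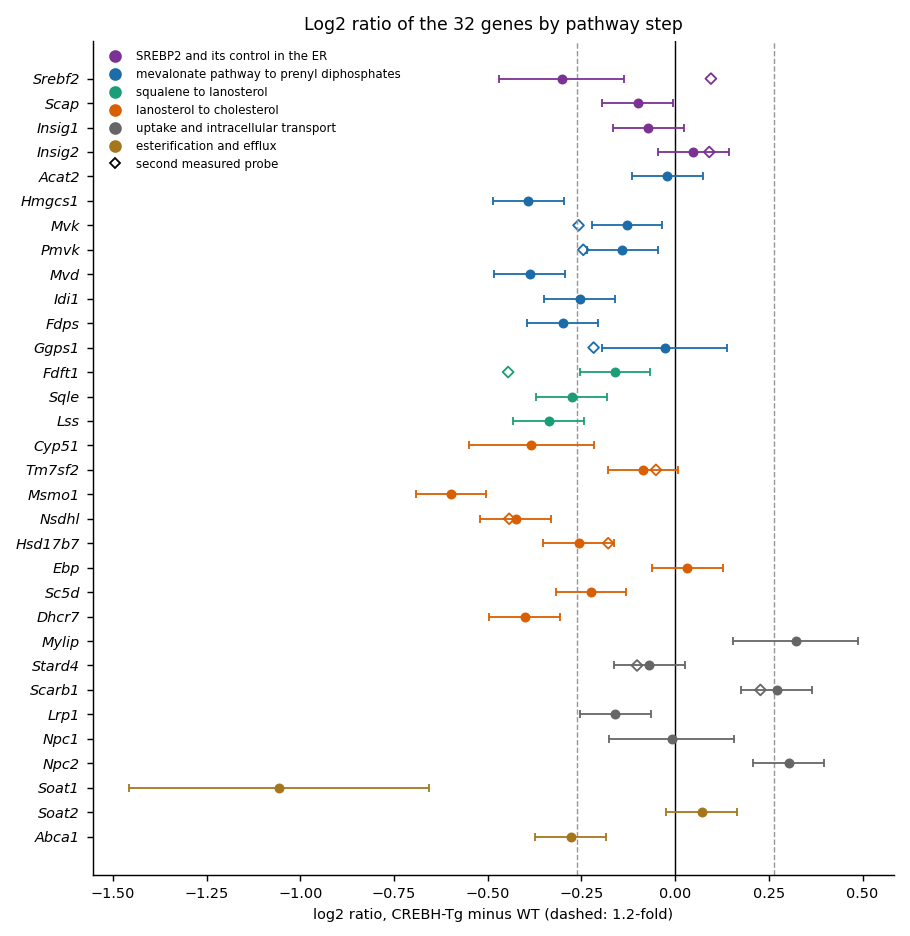
Log2 ratio, CREBH-Tg minus WT (x axis), of the 32 genes in pathway order, coloured by step; filled circles are the brightest measured probe with bars of 1.96 SD of spot noise, open diamonds a second measured probe, and dashed lines 1.2-fold. The enzymes from Hmgcs1 to Dhcr7 lie mostly left of 0, Soat1 at -1.06 with the widest bar, and Mylip, Scarb1 and Npc2 right of 0.

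Genes of uptake and transport inside the cell had a median log2 ratio of 0.13 (0.070 to 0.22 over the scalings and background corrections). By 1.2-fold or more 3 of 6 were higher and none lower, where 11.1% of named genes were higher and 9.92% lower. Mylip, a ubiquitin ligase that sends lipoprotein receptors to breakdown and is a known LXR target, had 1.63 in WT and 2.03 in CREBH-Tg, a log2 ratio of 0.32 or 1.25-fold higher. Its second probe was not well above background in WT, so it gave no ratio. Scarb1, the receptor through which the liver takes cholesterol esters from HDL, had 22.1 and 26.7, a log2 ratio of 0.27 or 1.21-fold higher, and its second probe gave 0.23. Npc2, the soluble lysosomal protein that hands cholesterol on for export, had 12.1 and 14.9, a log2 ratio of 0.30 or 1.23-fold higher. These 3 genes were above 0 under every setting tried, but none stayed at 1.2-fold under every one: in the authors' value table their log2 ratios were 0.26, 0.21 and 0.24.

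The rest of this group did not share that direction. Npc1, the membrane partner of Npc2 in the lysosome, was equal within spot noise, at 2.51 in WT and 2.49 in CREBH-Tg. Stard4, a cytosolic sterol carrier and known SREBP2 target, had 18.1 and 17.3, a log2 ratio of -0.069, within spot noise. Lrp1, an endocytic receptor for lipoprotein remnants, had 18.6 and 16.6, a log2 ratio of -0.16. Npc1 and Stard4 were above 0 with median scaling, at 0.079 and 0.020, and Npc1 at 0.021 after normexp.

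Esterification and efflux gave 3 different values. Soat1, the sterol O-acyltransferase of macrophages and most tissues, had 0.195 in WT and 0.0939 in CREBH-Tg, a log2 ratio of -1.06 ± 0.20 or 2.08-fold lower. It was the 1 gene of the 32 in the dimmest class and had a single probe. In that class 1.77% of named genes were 2-fold lower, against 0.13% in the brightest. Soat1 was no longer 2-fold lower after normexp (-0.32), after quantile normalization (-0.98) or with median scaling (-0.97), and it did not pass the stricter filter on dim probes. Soat2, the form of hepatocytes and intestine, had 12.1 and 12.7, a log2 ratio of 0.071, within spot noise. Abca1, which loads cholesterol onto apolipoprotein A-I and is a known LXR target, had 8.37 and 6.90, a log2 ratio of -0.28 or 1.21-fold lower (-0.19 with median scaling).

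Kupffer cell and macrophage markers were read beside Soat1. Of 8 such markers 7 were measured on both arrays and 6 lay below 0 (3 with median scaling), where 43.8% of named genes did. Of the 7, 5 were within spot noise. Those past it were the scavenger receptor Marco, 1.94-fold lower (15.2 in WT, 7.85 in CREBH-Tg), and Adgre1, 1.26-fold lower, named after its value was seen. The summed signal of the 7 was 168 in WT and 153 in CREBH-Tg, and without Marco 153 and 145. Cd68 was not well above background on both arrays. The part of these cells in the Soat1 value was not tested, and in such bulk RNA fewer cells of a type and less RNA per cell cannot be told apart.

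**Figure D3:**
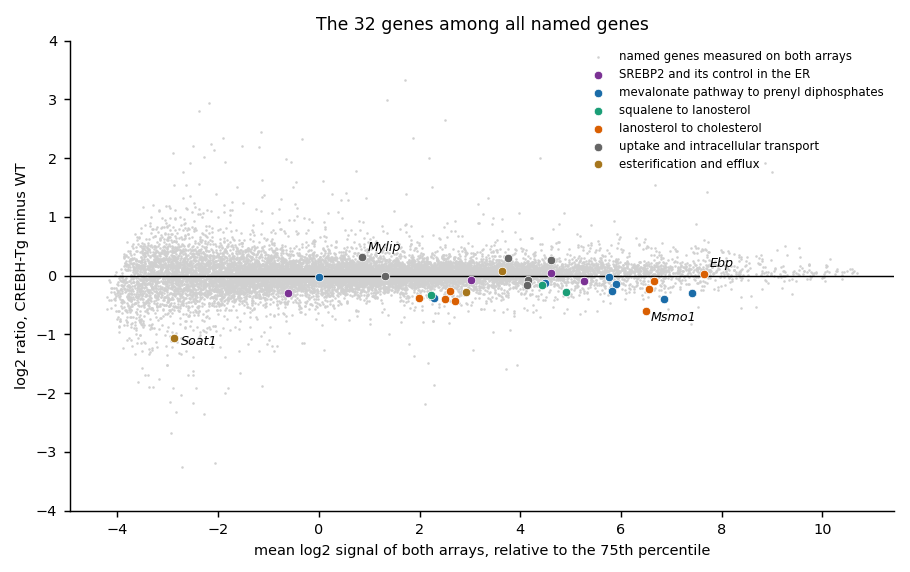
Log2 ratio, CREBH-Tg minus WT (y axis), against the mean log2 signal of both arrays (x axis) for all named genes measured on both arrays (grey) and the 32 genes (coloured by step), 1 array per group. Most of the 32 sit in the bright part of the cloud, where ratios spread least; Soat1 sits in the dim part, where they spread most.

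Where a gene had more than 1 measured probe, the probes mostly gave the same direction. This was so for 10 of 11 genes, Srebf2 being the exception. The median gap between the probes' log2 ratios was 0.078 over these 11 genes, and 0.13 over 3374 named genes with more than 1 measured probe. The largest gap was 0.40, for Srebf2, followed by Fdft1. For 20 of the 32 genes the array held a single probe, so that their ratios have no such check.

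Other genes of sterol biology were read from further lists, with 2 genes named at each end. Of 15 genes linked to SREBP2 outside the route, 10 lay below 0 (9 to 12 over the scalings and background corrections), with a median log2 ratio of -0.15 and 3 lower by 1.2-fold or more (Aacs, Acss2 and Acly, the last named after its value was seen). Acss2, Acly and Slc25a1 are also on the list of fatty acid synthesis genes. With genes of other lists left out, 7 of 11 lay below 0 and 1, Aacs, was lower by 1.2-fold, a share close to the 9.92% of all named genes. In the brightest class, which held 8 of the 11, 4.02% of named genes were. Aacs, which makes acetoacetyl-CoA in the cytosol, was 1.51-fold lower (21.7 in WT, 14.4 in CREBH-Tg), and Acss2, which activates acetate, 1.31-fold lower. Aldoc and Elovl5 stood at the other end, with log2 ratios of 0.23 and 0.17. Genes of SREBP processing and sterol-regulated degradation had a median of -0.017 with 7 of 13 below 0 (1 to 8), where 43.8% of named genes were. Mbtps1, the site-1 protease that makes the first cut in SREBPs, was 1.17-fold higher, at 15.6 in WT and 18.2 in CREBH-Tg. Mbtps2, the protease of the next cut, had a log2 ratio of -0.38, dim and within its spot noise of 0.40. Rnf145, a sterol-responsive ubiquitin ligase, had 0.21, and Erlin2 had -0.088.

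The branches that leave mevalonate for other products were centred near 0. Of 15 genes of dolichol, ubiquinone and protein prenylation measured on both arrays, out of 17, 7 lay below 0 (2 to 10 over the scalings and background corrections tried), where 43.8% of named genes did. Their median log2 ratio was 0.0022, and none was 1.2-fold apart. Dhdds and Nus1, the subunits of the dolichol synthase, had 0.17 and 0.14, although a second Nus1 probe gave 0.61. The lowest were the dim genes Pggt1b at -0.21 and Pdss1 at -0.13.

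Further genes of lipoprotein uptake and sterol transport were mostly above 0, as were 56.2% of all named genes. For lipoprotein uptake 11 of 14 measured genes (of 15 listed) lay above 0 (9 to 13 over the scalings and background corrections), with a median log2 ratio of 0.087; 2 were higher by 1.2-fold, where 11.1% of named genes were, and 7 lay within spot noise. The receptor Vldlr was 1.36-fold higher and the dim Lrp2 1.33-fold higher, while the dim sorting receptor Sorl1 was 1.72-fold lower and Cd36 had -0.045. For sterol transport and ester hydrolysis 12 of 17 lay above 0 (8 to 13), with a median of 0.065 (-0.014 at its lowest); 1 was higher by 1.2-fold and 12 lay within spot noise. By the 1.2-fold count lipoprotein uptake was near the share of all named genes, and sterol transport was not above it. That share covers all signal classes, whereas 12 of the 17 sterol transport genes were in the brightest. Lipa, the lysosomal acid lipase that frees cholesterol from esters, was 1.29-fold higher (15.0 in WT, 19.4 in CREBH-Tg), and Scarb2, a lysosomal membrane protein, had 0.26. Lipa and Scarb2 thus had the direction of Npc2, whereas Npc1 did not. The lowest were Gramd1b at -0.15 and Osbp at -0.14, and the 2 probes of Osbp lay on opposite sides of 0.

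Of 13 other LXR-linked and efflux genes, 10 lay above 0 (8 to 12 over the scalings and background corrections), where 56.2% of named genes did, with a median log2 ratio of 0.12. By 1.2-fold, 2 were higher, near the 11.1% of all named genes, and 1 lower. By more than spot noise 8 were higher, where 20.9% of named genes were. Both shares cover all signal classes, whereas 10 of the 13 were in the brightest, so they are not like for like. Srebf1 and Nr1h3 are also on the list of fatty acid synthesis, and without them 9 of 11 lay above 0 and 2 were higher by 1.2-fold. Abcg8, a subunit of the transporter that secretes sterols into bile, was 1.27-fold higher (0.868 in WT, 1.11 in CREBH-Tg), and Lcat, which esterifies cholesterol in plasma, 1.25-fold higher. Srebf1 was 1.26-fold lower and Abca6 had -0.047. Mylip, with 0.32, stood with the upper genes of this list and Abca1, with -0.28, with Srebf1.

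**Figure D4:**
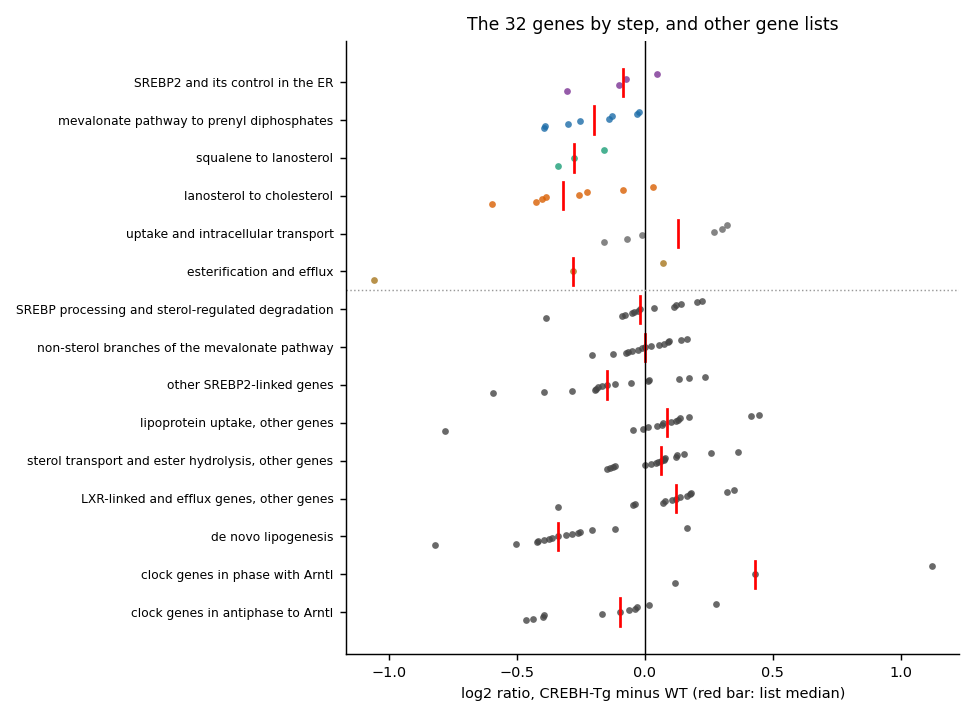
Log2 ratio, CREBH-Tg minus WT (x axis), of each measured gene (points) in the 6 steps of the 32 genes (above the dotted line) and in 9 further lists (below it), with the median of each list as a red bar. The 3 synthetic steps and the de novo lipogenesis list have medians between -0.34 and -0.20, and the uptake, transport and LXR-linked lists have medians above 0.

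Genes of fatty acid synthesis, which are mainly under SREBP1, were mostly lower as well. Of 15 genes 14 lay below 0, in each of the 7 scalings and background corrections, where 43.8% of named genes did. Their median log2 ratio was -0.34, and 10 were lower by 1.2-fold or more, as were 9 of the 19 sterol enzymes. Of all named genes 9.92% were lower by this step, and 4.02% in the brightest class, which held 13 of the 15. With genes of other lists left out, 10 of 10 lay below 0, with a median of -0.37 and 7 lower by 1.2-fold. Thrsp, which promotes lipogenesis, had a log2 ratio of -0.82 and Fasn, fatty acid synthase, -0.50, while Slc25a1 had -0.11 and Nr1h3, which encodes an LXR, 0.17. With 1 array per group the 2 lists could not be tested against each other.

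Sterol synthesis in mouse liver is known to follow the time of day, and some clock genes were apart between the pools by more than spot noise. Of 4 clock genes in phase with Arntl, 3 were measured on both arrays and lay above 0, where 56.2% of named genes did. Their median log2 ratio was 0.43. Arntl itself, a dim gene, was 2.17-fold higher, Nfil3 1.35-fold, and Clock had 0.12, within spot noise. Of 11 in antiphase, 9 lay below 0 (6 to 10), where 43.8% of named genes did, with a median of -0.098. By more than spot noise 5 of the 11 were lower and 1 higher, where 13.2% and 20.9% of named genes were, and the other 5 lay within it. The lowest were Ciart at -0.46 and Per3 at -0.43, and the highest were Nr1d1 at 0.28 and Nr1d2 at 0.018, the latter within spot noise. The labels read here do not state the hour of sampling, and the part of time of day in the sterol values was not tested.

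Other cell types and the array as a whole are described briefly. Spots well above background made up 55.4% in WT and 58.3% in CREBH-Tg, none was saturated, and both arrays lay on 1 slide. Hepatocyte markers were bright on both arrays, with a summed signal of 6511 in WT and 6671 in CREBH-Tg, 9 of 10 measured, and log2 ratios of -0.21 (Ass1) to 0.100 (Hnf4a). Tf was not well above background on both arrays. Median log2 ratios were 0.14 for 7 of 8 lymphocyte markers (farthest Cd3d, 2.14-fold higher, dim; Cd8a not well above background on both arrays), 0.12 for 8 of 8 stellate cell markers (Col1a1, 0.29) and 0.074 for 8 of 8 endothelial markers (Emcn, 0.48, dim). The median was -0.14 for 6 of 7 cholangiocyte markers (Krt7, -0.54, dim), Epcam not being well above background on both arrays. Summed signals in WT and CREBH-Tg were 13.5 and 14.8 for lymphocytes, 71.9 and 73.8 for stellate cells, 108 and 119 for endothelium and 2.37 and 1.90 for cholangiocytes.

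**Figure D5:**
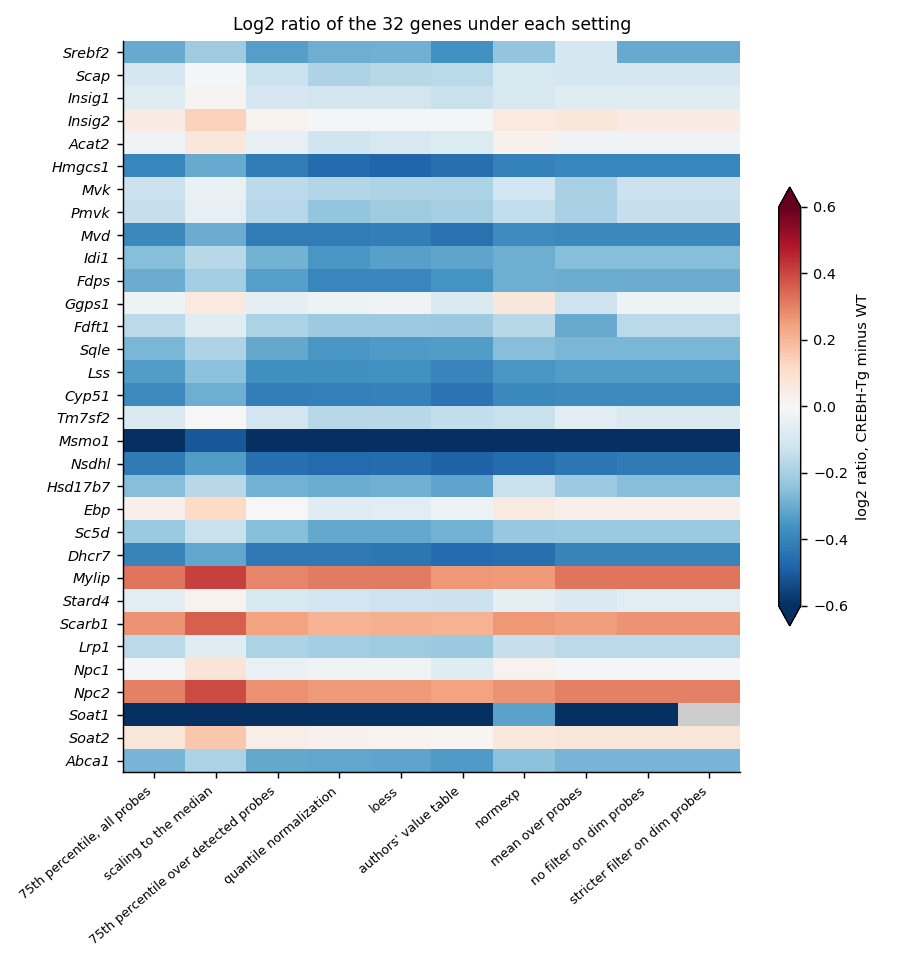
Log2 ratio, CREBH-Tg minus WT (colour, blue lower and red higher in CREBH-Tg), of each of the 32 genes (rows) under the main scaling and 9 alternative settings (columns); grey marks a gene that a filter removed. Of the genes, 20 are blue throughout, 4 (Mylip, Scarb1, Soat2 and Npc2) red throughout, and 8 take both signs.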

How the data were processed

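Total liver RNA of 2 pools, 1 per genotype, was labelled with Cy3 and hybridised to 1-colour Agilent arrays, per the labels. The deposited processed signal is an intensity that Agilent Feature Extraction 10.10.1.1 background-subtracted and detrended within the array, per the file headers. Raw intensities were deposited too, as median spot and median background signals. In the authors' value table, the WT column is the processed signal times 2.59 (median 89.8) and the CREBH-Tg column the processed signal times 2.68 (median 81.0). How these factors were chosen is not given here.

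Log2 processed signal was scaled to each array's 75th percentile over non-control spots, 333 for WT and 309 for CREBH-Tg. Outlier spots (300) were left out and spots of 1 probe averaged. A probe was measured where more than 50% of its spots passed the Feature Extraction flag for well above background. A gene took its brightest probe measured on both arrays. Accessions without versions named 27227 of 55677 probes through a RefSeq table of GRCm38.p6; the files annotate on mm9, so none of its gene coordinates are given. Spot noise came from probes spotted at least 5 times.

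With 1 array per genotype no test across genes was run; the number of arrays limits the precision. Named were all 32 genes, the 2 highest and 2 lowest genes of each other list and the marker farthest from 0. The members, lists and the 1.2-fold step were chosen with earlier results of these data known. Normexp used the median spot signal with an offset of 50. Gene steps were tested on simulated data. Tools were limma 3.58.1 in R 4.3.3 and, in Python 3.11.15, pandas 2.3.3, numpy 2.4.6, matplotlib 3.10.9 and statsmodels 0.14.6.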

Additional observations from a re-analysis of the deposited data

How the results depend on the processing

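No paired analysis was possible because each group is 1 array. For the 32 genes, the median log2 ratio of -0.16 was -0.071 with median scaling, -0.23 after quantile normalization, -0.22 in the authors' value table and -0.26 over the enzymes of synthesis alone; in the other settings it ran from -0.22 (loess) to -0.14 (normexp). Relative to the median of all named genes it was -0.24 to -0.15 in all 10 settings. The count 1.2-fold lower, 12, was 7 with median scaling and 7 at a threshold of 1.3-fold, and between 9 (enzymes alone) and 18 (at 1.1-fold) otherwise. The count 2-fold apart, 1, was 0 with median scaling, quantile normalization, normexp, the stricter filter on dim probes or the enzymes alone, and 2 at 1.5-fold. The count below 0 was 20 to 28 over the 32 genes, 25 of 31 with the stricter filter and 18 of the 19 enzymes. No gene of the 32 past 1.2-fold changed sign under any setting. Normexp with its offset shrinks ratios of dim genes by construction, which bears on Soat1, and dim signal limits Soat1 most.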
